A study of Mus musculus with 12 samples.

Results

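Factors that specify primitive endoderm were followed through 6 genes in R1 mouse embryonic stem cells: the transcription factor genes Gata6, Gata4, Hnf4a, Foxa1 and Foxa3, and the receptor gene Pdgfra. All probe sets, which are groups of short probes for a transcript, whose only gene symbol in the platform annotation is one of these 6 names were taken. That gave 14 probe sets for 6 genes, of 18193 genes named on the arrays. Array A (MOE430A) carried 12 of them and array B (MOE430B) 2, one for Gata6 and one for Pdgfra. The 3 differentiated RNAs, D1 to D3, are labelled as embryoid bodies, clumps of stem cells left to specialise. The 3 undifferentiated RNAs, U1 to U3, are labelled as the same line under regular growth conditions, at an estimated purity of 95% judged by eye. All 6 RNAs came from the line R1, with no transgene or added agent named, and each was hybridised once to each array type. Both groups carry one and the same culture note, D-MEM with serum on bacterial Petri dishes for 5 days, and no label tells whether the 3 RNAs of a group are separate cultures. The p-values below thus reflect only how these RNAs vary, and that variation may be technical. These are bulk RNAs, so fewer cells of a type and less RNA per cell cannot be told apart.

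Primitive endoderm is the layer that forms beside the epiblast in the late blastocyst and later gives the visceral and parietal endoderm of the yolk sacs. FGF signalling from epiblast cells favours GATA6 over NANOG in the cells that take this fate, and GATA6, GATA4 and SOX17 then turn on an endoderm programme. PDGFRA marks these cells on their surface, while HNF4A and the FOXA factors act later, in visceral endoderm, where they drive genes for carrier proteins and lipoproteins. The outer layer of embryoid bodies is known to form such endoderm.

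Of the 6 genes, 2 had a probe set that passed the test, and both probe sets rose in the differentiated RNAs. Hnf4a 1427001_s_at was 5.27-fold and Gata6 1425464_at was 2.84-fold higher. The other tested probe sets of these 2 genes did not pass. Their log2 differences were 0.21 and 0.36 for Hnf4a, and 1.83 (array A) and -0.13 (array B) for Gata6. For Gata4, Foxa1 and Foxa3, the values of D1 to D3 on an array A probe set all exceeded those of U1 to U3, with mean differences of 0.94 to 1.78 on the log2 scale, without passing. Pdgfra did not share this pattern: its array A difference was -1.01 and its groups overlapped. Both calls were lost under some alternative settings, given with each gene. All values are log2 signals after scaling each array, with a floor of 32 on the linear scale, which is 5 on the log2 scale. Differences are differentiated minus undifferentiated, tested with limma across all probe sets of an array type, and a call means a Benjamini-Hochberg adjusted p under 0.05. Dim probe sets, with a mean over all arrays below 6 on this scale, were not tested, which left 10 of the 12 on array A and both on array B. On array A, 2 of the 10 rose, none fell, and the unadjusted p was below 0.05 for 6. Over all 18025 probe sets tested there, 1.31% rose and 1.56% fell, and for 15.8% the unadjusted p was below 0.05. The median difference of the 10 was 1.25, against 0.02 for all tested. All differentiated values lay above all undifferentiated values for 6 of the 10, against 11.0% of probe sets tested on that array. The 10 come from 6 genes, and both array A probe sets of Gata6 are counted, so they are not 10 separate measures. The members were also chosen with earlier results of these data known. On array B 0 of 2 were called by limma, also 0 at an unadjusted p under 0.05, where 0.0197% of 20344 probe sets were called and 5.24% had an unadjusted p under 0.05.

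**Figure D1:**
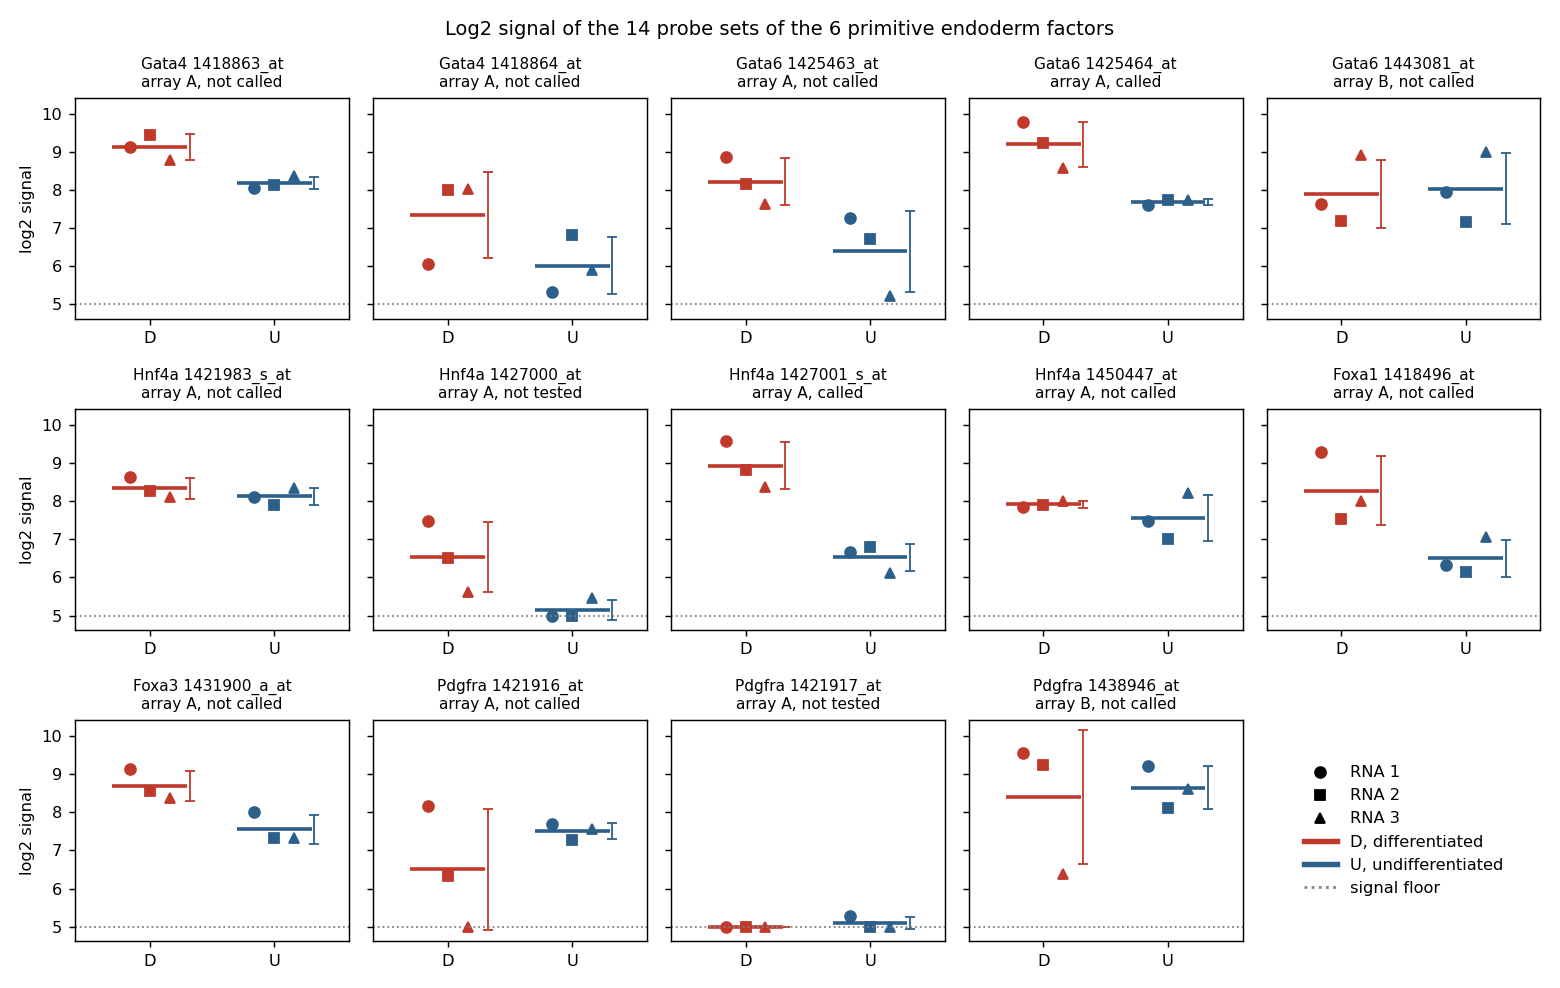
Log2 signal (y axis) of the 14 probe sets in the differentiated (D, left) and undifferentiated (U, right) RNAs, with 1 symbol per RNA, a line at the group mean and a bar of 1 SD (n = 3). Gata6 1425464_at and Hnf4a 1427001_s_at are separated without overlap and were called, whereas the Pdgfra probe sets overlap.

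Some facts of the arrays touch these results. D1 stood apart on array A, with a median r of 0.843 with the other arrays, against 0.881 to 0.891 for the other 5. Its actin control, a sign of RNA integrity, had a log2 3' over 5' ratio of 0.70, against 0.13 to 0.31 in the other 5. On array B, U2 stood apart, with a median r of 0.637 with the other arrays, against 0.762 to 0.811 for the other 5, and the actin ratio was 0.68 in D1 and 0.55 in U1, against 0.01 to 0.32 in the other 4. Station and group cannot be told apart on array A, since one fluidics station processed D1 to D3 and another U1 to U3, and U2 and U3 were on another array lot than U1 and the differentiated RNAs. The identity of the cells was checked with 10 stem cell markers, all of which were tested in both groups. Of these, 8 had a difference below 0 and 2 above it (median -0.55), and 4 had an unadjusted limma p under 0.05. Their summed array A signal was 29832.0 to 52548.2 in D1 to D3, against 61665.0 to 71831.3 in U1 to U3. Dppa5a, the brightest of the 10 by group mean, weighs most in these linear sums. It read 14.07 ± 0.78 in differentiated RNAs and 15.12 ± 0.09 in undifferentiated RNAs (log2, SD, n = 3 each, limma adjusted p = 0.096). The mean log2 signal of the 10 stood at -1.01, -0.6 and -0.2 in D1 to D3 against the undifferentiated mean. The list held 1 call, which was lost with a floor of 64, with no filter, without the intensity trend and with the array lot as a block. The count was 2 with quantile normalisation or without D1 or D3, and 4 with the replicate number as a block. Tdgf1, a Nodal coreceptor, fell and the other 9 did not pass, with Pou5f1 at 11.88 ± 0.20 in differentiated RNAs and 12.15 ± 0.04 in undifferentiated RNAs (n = 3 each, SD; limma adjusted p = 0.352).

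GATA6, a zinc finger factor that binds GATA motifs, is the earliest of the 5 transcription factors to mark the lineage. Its probe set 1425464_at read 9.78, 9.24 and 8.59 in D1 to D3, against 7.61, 7.74 and 7.75 in U1 to U3. The undifferentiated RNAs were nearly equal, and every differentiated RNA lay above them, D1 furthest and D3 nearest. The means were 9.21 ± 0.60 in differentiated RNAs and 7.70 ± 0.08 in undifferentiated RNAs (SD, n = 3 each), a difference of 1.51 ± 0.32 (SE, 95% interval 0.79 to 2.22, limma adjusted p = 0.0349). The call was not robust: it held under 7 of 17 alternative settings, with adjusted p from 0.0231 to 0.27, and was lost on leaving out any RNA but D3, with differences between 1.22 and 1.53. Against U1 alone, within array lot 1, D1 was higher by 2.17, D2 by 1.63 and D3 by 0.98.

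The regions that probe sets bind were not compared, only the sequence record that the platform annotation gives for each. The other Gata6 probe set of array A, 1425463_at, has the same record as 1425464_at and is not taken as an independent measure. It read 8.87, 8.15 and 7.64 in D1 to D3, against 7.26, 6.72 and 5.21 in U1 to U3. The groups did not overlap here either, but U3 lay far below U1 and the spread was wide. The difference was 1.83 ± 0.58 (SE, limma adjusted p = 0.141), and with the array lot as a block it was 0.96, because U1 is the highest of the undifferentiated RNAs. The Gata6 probe set of array B, 1443081_at, has another sequence record and gave no such separation. It read 7.63, 7.19 and 8.91 in D1 to D3, against 7.94, 7.17 and 9.01 in U1 to U3. The high values were those of D3 and U3, the low ones those of D2 and U2, and the difference was -0.13 ± 0.71 (SE, 95% interval -1.74 to 1.47, limma adjusted p = 0.976). Without U2, the array B hybridisation that stood apart, the difference was -0.57. The interval with all RNAs and the one of 1425464_at overlap between 0.79 and 1.47.

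GATA4, a relative of GATA6 that acts after it in primitive endoderm and also in heart, was measured by 2 probe sets with the same sequence record. For 1418863_at the signal was 9.14, 9.46 and 8.78 in D1 to D3, against 8.05, 8.13 and 8.37 in U1 to U3. Every differentiated RNA was above every undifferentiated one, with D3 and U3 closest. The difference was 0.94 ± 0.26 (SE, 95% interval 0.36 to 1.52), which missed the threshold (limma adjusted p = 0.09, and 0.071 to 0.371 over 17 alternatives). For 1418864_at, the dimmer of the 2, the signal was 6.05, 8.00 and 8.02 in D1 to D3, against 5.33, 6.82 and 5.90 in U1 to U3. Here D2 and D3 were high and D1 lay among the undifferentiated RNAs, so the groups overlapped (difference 1.34 ± 0.69, SE, limma adjusted p = 0.398). D1, the RNA with the highest Gata6 signal on both array A probe sets, was thus the lowest differentiated RNA on this Gata4 probe set.

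HNF4A, a nuclear receptor of visceral endoderm and liver, had 4 probe sets on array A, and they did not give the same answer. The probe set 1427001_s_at read 9.59, 8.82 and 8.38 in D1 to D3, against 6.67, 6.80 and 6.13 in U1 to U3. The lowest differentiated RNA lay well above the highest undifferentiated one. This probe set averaged 8.93 ± 0.61 in differentiated RNAs and 6.53 ± 0.36 in undifferentiated RNAs (SD, n = 3 each). Its difference of 2.40 ± 0.41 (SE, 95% interval 1.49 to 3.31, limma adjusted p = 0.0107) was the largest among the 12 tested member probe sets. It was called under 13 of 17 alternatives, with differences from 2.06 to 2.67 and adjusted p from 0.007 to 0.206, and on leaving out each RNA in turn. The call was lost with a floor of 64, with no filter, without the intensity trend and with the lot as a block. Against U1 alone the differences were 2.91 in D1, 2.15 in D2 and 1.71 in D3. Probe sets ending in _s_at are of a kind that can bind transcripts of more than one gene.

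The probe set 1427000_at, with the same sequence record as 1427001_s_at, failed the filter. It read 7.48 in D1, 6.51 in D2 and 5.63 in D3, while U1 and U2 lay at the floor of 5 and U3 at 5.45. Its groups did not overlap, D1 again being highest and D3 close to U3, and it is given here with no test or fold. The other 2 probe sets share a different sequence record. For 1421983_s_at the signal was 8.64, 8.26 and 8.11 in D1 to D3, against 8.12, 7.90 and 8.36 in U1 to U3. For 1450447_at it was 7.92 ± 0.09 in differentiated RNAs and 7.56 ± 0.61 in undifferentiated RNAs (SD, n = 3 each), with U3 highest at 8.21. In both, U3 was above D2 and D3, and the differences were 0.21 (95% interval -0.45 to 0.86, limma adjusted p = 0.812) and 0.36 (95% interval -0.51 to 1.22, limma adjusted p = 0.744). The log2 ratio of 1427001_s_at to 1421983_s_at within an array was 0.95, 0.56 and 0.28 in D1 to D3, against -1.45, -1.10 and -2.23 in U1 to U3. The ratio was higher in every differentiated RNA than in any undifferentiated one, with a shift of 2.19 between the group means (two-sided exact permutation p = 0.1, the smallest that 3 against 3 allows). This pair was compared after its values were seen, and it was chosen because 1427001_s_at was called and 1421983_s_at was not. A shift in the ratio follows from that choice, so the p-value is no test of it. A single representative for Hnf4a chosen by its mean signal over the 6 arrays would be 1421983_s_at, which was not called.

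The RefSeq promoter table (build GRCm38.p6) lists 2 start sites for Hnf4a on the + strand 40298 bases apart, and the gene is known to use 2 promoters. The 250 bases before each are shown because the Hnf4a probe sets disagree. No probe sequences were used here, so no probe set is tied to either start. The upstream window is chr2:163506607-163506856 and the downstream one chr2:163546905-163547154. Capitals mark matches to the GATA motifs AGATAA and TGATAA, the forkhead motif TGTTTAC and the HNF4A motif CAAAGTCCA, searched on both strands. AGATAA and TGATAA share the letters GATAA but cannot both match at one place.
Hnf4a upstream start: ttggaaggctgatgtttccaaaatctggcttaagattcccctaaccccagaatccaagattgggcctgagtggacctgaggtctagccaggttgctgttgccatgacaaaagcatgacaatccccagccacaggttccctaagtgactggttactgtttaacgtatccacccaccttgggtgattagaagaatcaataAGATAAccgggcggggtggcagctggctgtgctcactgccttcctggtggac
Hnf4a downstream start: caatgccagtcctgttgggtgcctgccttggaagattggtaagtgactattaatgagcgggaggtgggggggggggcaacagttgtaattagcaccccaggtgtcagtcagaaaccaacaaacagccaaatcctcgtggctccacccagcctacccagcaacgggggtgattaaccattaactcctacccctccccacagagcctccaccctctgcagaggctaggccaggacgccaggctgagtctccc
The upstream window holds 1 match, AGATAA beginning 52 bases before the start, and the downstream window holds 0. Of 32851 windows of this length, 16.6% hold AGATAA or TGATAA, so a match is common.

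FOXA1 and FOXA3 are forkhead factors that open chromatin at endoderm genes. Foxa1, with a single probe set, read 9.30, 7.54 and 8.00 in D1 to D3, against 6.32, 6.14 and 7.05 in U1 to U3. Every differentiated RNA was above every undifferentiated one, but D1 stood well above the others, and the spread was wide (SD 0.92). The difference of 1.78 ± 0.53 (SE, 95% interval 0.62 to 2.94, limma adjusted p = 0.112) did not pass, and without D1 it was 1.27 (adjusted p = 0.254, within 0.0829 to 0.448 over 17 alternatives). Foxa3 read 9.14, 8.55 and 8.39 in D1 to D3, against 8.00, 7.34 and 7.32 in U1 to U3. The groups did not overlap, and D3 lay closest to U1. Its difference was 1.15 ± 0.34 (SE, 95% interval 0.39 to 1.90, limma adjusted p = 0.116), and with the array lot as a block it was 0.70, the lowest of its 17 alternatives, over which the adjusted p ranged from 0.0731 to 0.731. Foxa2, the third FOXA gene and no member here, rose by 2.26 ± 0.24 (SE, limma adjusted p = 0.000855), with 10.12 ± 0.09 in differentiated RNAs and 7.87 ± 0.39 in undifferentiated RNAs (SD, n = 3 each). Whether Foxa2 differed more than Foxa1 or Foxa3 was not tested.

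The windows before the starts of both genes are shown because the genes are paralogues and both had separated groups. That of Foxa1 is chr12:57546112-57546361 and that of Foxa3 chr7:19023540-19023789, both on the - strand and written 5′ to 3′ along it, with capitals as above.
Foxa1: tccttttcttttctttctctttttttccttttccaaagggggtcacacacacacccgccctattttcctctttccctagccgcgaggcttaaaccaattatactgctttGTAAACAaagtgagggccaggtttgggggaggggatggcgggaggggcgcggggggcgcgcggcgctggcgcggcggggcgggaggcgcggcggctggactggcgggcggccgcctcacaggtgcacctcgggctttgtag
Foxa3: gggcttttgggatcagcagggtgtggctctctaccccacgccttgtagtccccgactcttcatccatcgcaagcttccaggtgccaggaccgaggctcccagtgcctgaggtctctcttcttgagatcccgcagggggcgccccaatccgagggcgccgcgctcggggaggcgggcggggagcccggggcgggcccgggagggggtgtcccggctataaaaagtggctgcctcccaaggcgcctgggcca
The Foxa1 window holds the reverse complement of the forkhead motif, GTAAACA, beginning 141 bases before the start, and 3.17% of all windows hold this motif on either strand. The Foxa3 window holds 0 matches, as does that of Pdgfra. GC content was 62.0% for Foxa1 and 68.8% for Foxa3, against a median of 52.4% over all windows.

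PDGFRA, the receptor for PDGF ligands and a surface marker of primitive endoderm, mesoderm and fibroblasts, had no probe set whose groups were separated. Its array A probe set 1421916_at read 8.17 and 6.34 in D1 and D2 and lay at the floor of 5 in D3, against 7.70, 7.28 and 7.56 in U1 to U3. The undifferentiated RNAs were close together, while D1 was above all of them and D2 and D3 below. The difference of -1.01 ± 0.72 (SE, 95% interval -2.59 to 0.57, limma adjusted p = 0.568) rests on D3, since it was -0.25 without D3 and -1.84 without D1. On array B, 1438946_at, with another sequence record, read 9.57, 9.25 and 6.38 in D1 to D3, against 9.22, 8.11 and 8.62 in U1 to U3. D3 was the low RNA on both arrays and D1 the highest of all 6 on both. The array B difference was -0.25 ± 0.82 (SE, 95% interval -2.09 to 1.59, limma adjusted p = 0.959) and became 0.76 without D3, 0.03 without U1 and -0.52 without U2. The third probe set, 1421917_at, lay at the floor in 5 of 6 arrays and was not tested. The interval of each tested probe set spans 0 widely, so a change in either direction could not be told at this precision.

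**Figure D2:**
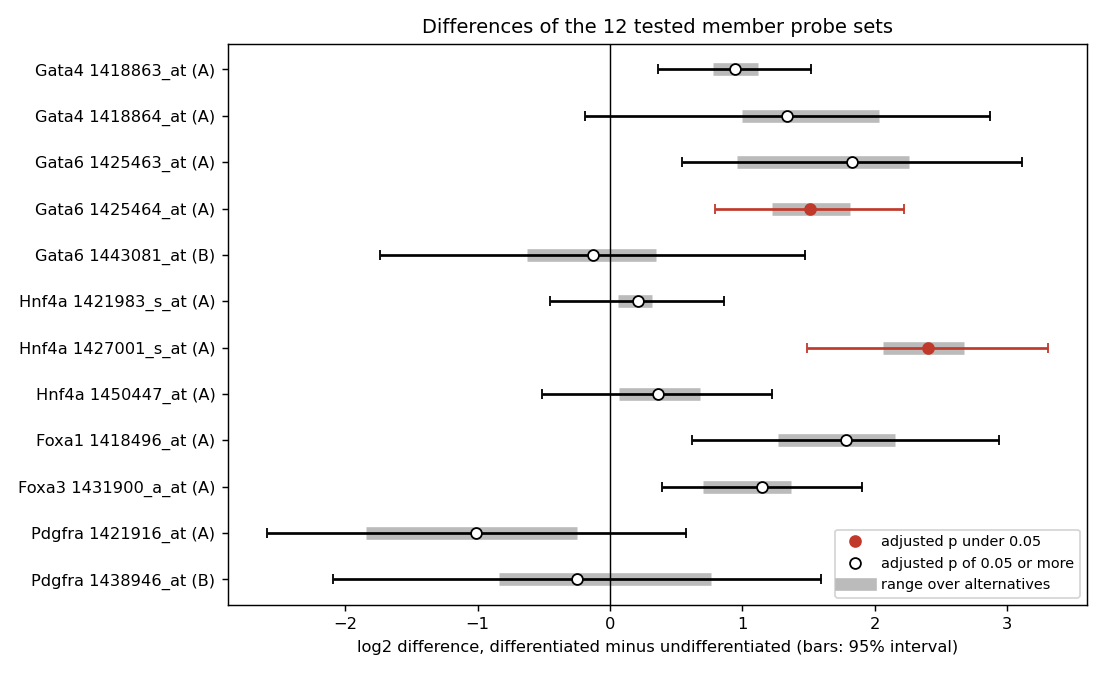
Log2 difference, differentiated minus undifferentiated (x axis), of the 12 tested member probe sets, with 95% intervals, the array in brackets and a grey bar for the range over 17 alternative settings. The intervals of Hnf4a 1427001_s_at and Gata6 1425464_at lie farthest above 0, and only the 2 array B probe sets have a grey bar that crosses 0.

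The 3 differentiated RNAs did not carry the factors to the same degree. D1 was highest and D3 lowest for both Gata6 probe sets of array A, for Hnf4a 1427001_s_at and for Foxa3. Among the 10 tested probe sets of array A, these 4 both had this order and lay above all undifferentiated RNAs, as did 2.62% of all probe sets tested there. This pattern was picked after the values were seen, and the 4 include both array A probe sets of Gata6, which are not taken as independent. Set against the undifferentiated mean, Hnf4a 1427001_s_at stood at 3.05 in D1, 2.29 in D2 and 1.85 in D3. Foxa1 and Gata4 ran in other orders. Foxa1 stood at 2.80 in D1, 1.04 in D2 and 1.50 in D3, Gata4 1418863_at was highest in D2, and Gata4 1418864_at was lowest in D1 among the differentiated RNAs. D1 is also the RNA with the 3' to 5' actin ratio of 0.70 and the lowest correlation, and the part of RNA quality in its higher values was not tested. Without D1 the differences were 2.07 for Hnf4a 1427001_s_at (limma adjusted p = 0.0358, within 0.007 to 0.206 over its alternatives) and 1.22 for Gata6 1425464_at (adjusted p = 0.077, within 0.0231 to 0.27).

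**Figure D3:**
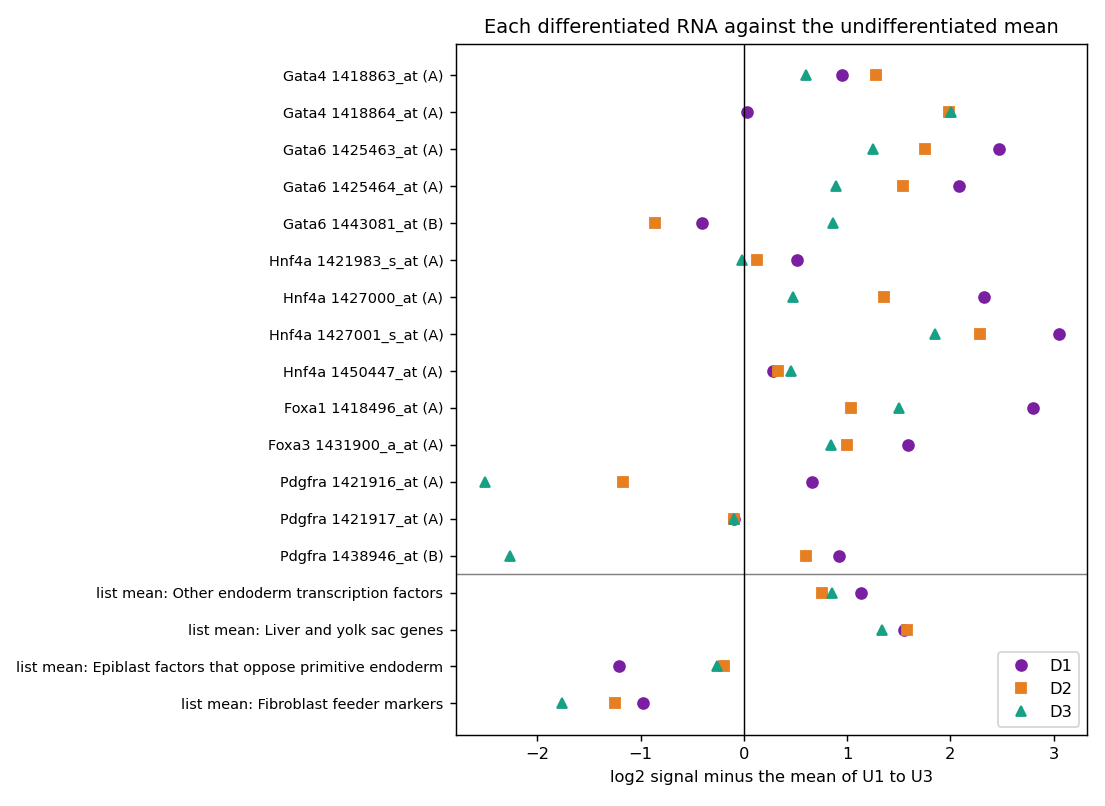
Log2 signal of D1, D2 and D3 minus the mean of U1 to U3 (x axis) for the 14 member probe sets and, under the line, for the mean of 4 gene lists. D1 lies farthest to the right for Gata6 on array A, Hnf4a 1427001_s_at, Foxa1 and Foxa3, and D3 farthest to the left for Pdgfra 1421916_at and 1438946_at.

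Across the 6 arrays of array A, the signal of Gata6 1425464_at had a Pearson r of 0.97 with Hnf4a 1427001_s_at, 0.92 with Gata4 1418863_at, 0.91 with Foxa3 and 0.90 with Foxa1. With Pdgfra 1421916_at it was -0.08. These are descriptions over 6 points that share the group split, the station and the scaling. By the same measure over all named array A probe sets, the genes most like Gata6 1425464_at were Asb4 (r = 0.997), Smarca4 (r = 0.993) and Ezh2 (r = 0.991). Those most like Hnf4a 1427001_s_at were Pim2, 6330403K07Rik and Alad, with r from 0.996 to 1.0. For Foxa1 they were Rras, Ndrg2 and Selenop (0.991 to 0.993), for Foxa3 Frat2, Hmgn3 and Xiap (0.996 to 0.999), and for Gata4 1418863_at Mat2b, Rpsa and Bag2 (0.985 to 0.989). Those most like Pdgfra 1421916_at were Prelid1, Tmem150a and Tnfrsf23 (0.991 to 0.994).

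Other genes of the network were taken from lists, each gene by 1 probe set. All lists were chosen with earlier results of these data known, so their counts are not independent evidence of a direction. Over all 16461 genes tested, 0.923% rose, 1.16% fell and the median difference was 0.01. Of the 16 other endoderm transcription factors tested, 4 rose, 0 fell and 12 did not pass (median 0.87). The 4 calls became 2 without D3 or U2, with a floor of 64, with no filter, without the trend or with the lot block. Besides Foxa2, they were Lhx1, a homeobox gene of anterior visceral endoderm (4.08 ± 0.46, SE, limma adjusted p = 0.0011, with 2 of 3 undifferentiated RNAs at the floor), Sox17, which acts with the GATA factors in primitive endoderm (1.47 ± 0.27, SE, adjusted p = 0.0162), and Hhex, of anterior visceral endoderm (1.13 ± 0.23, SE, adjusted p = 0.0239). Sox7, a relative of Sox17, did not pass (0.73, limma adjusted p = 0.694). Hnf4g, the paralogue of Hnf4a, failed the filter, with 6.56 ± 1.13 in differentiated RNAs and 5.01 ± 0.02 in undifferentiated RNAs (SD, n = 3 each). Its groups did not overlap.

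None of the 5 other GATA and FOG cofactor genes tested passed in limma, and 0 had an unadjusted p under 0.05 (median 0.14). Gata1 (0.21), Gata2 (-0.08), Gata5 (0.14), Zfpm1 (0.71) and Zfpm2 (-0.69) all had overlapping groups, and Gata3 was too dim to test. In the FGF and ERK pathway, which lies upstream of Gata6, 24 genes were tested by limma, 0 rose and 0 fell, 6 had an unadjusted p under 0.05 and the median was -0.07. With the lot block 1 was called. The ligand Fgf4 read 8.96 ± 0.51 in differentiated RNAs and 9.50 ± 0.44 in undifferentiated RNAs (n = 3 each, SD; limma adjusted p = 0.442). The receptors Fgfr1 (-0.50) and Fgfr2 (-0.31) and the ERK phosphatase gene Dusp6 (-0.15) did not pass either.

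Around Pdgfra, 13 genes were tested and 2 fell, 0 rose and 11 did not pass (median -0.07). Both calls were lost on leaving out any RNA but D1, without the trend, with adjustment over both array types and with the lot block, and 1 was left with median centring, a floor of 64 or no filter. The 2 were Pdgfb, a ligand (-1.10 ± 0.23, SE, limma adjusted p = 0.0305), and Stat3, a signal relay shared with LIF (-0.86 ± 0.19, SE, adjusted p = 0.042). Pdgfc, which encodes a ligand of PDGFRA, had groups that did not overlap, lower in the differentiated RNAs, and did not pass (-1.73 ± 0.52, SE, adjusted p = 0.118). Pdgfa, another such ligand, was likewise lower without overlap and did not pass (-0.36, limma adjusted p = 0.502), and the receptor Pdgfrb was too dim to test.

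The 12 epiblast factors tested, which oppose the endoderm fate, had a median of -0.59, with 2 that fell, 0 that rose and 10 that did not pass. The 2 calls became 1 without U3 or the trend and 0 with the lot block. Klf4 and Klf5 fell, while Nanog, the direct opponent of GATA6, read 10.74 ± 0.79 in differentiated RNAs and 11.30 ± 0.11 in undifferentiated RNAs (n = 3 each, SD; limma adjusted p = 0.43). The mean of this list was furthest below the undifferentiated mean in D1 (-1.21), against -0.19 in D2 and -0.26 in D3. D1 was also the RNA with the highest Gata6 signal on array A, though not on array B, and the one with the actin ratio of 0.70 and the median r of 0.843. The part of RNA quality in the D1 value of this list was not tested.

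Of 20 downstream genes for endocytosis and basement membrane, 4 rose, 2 fell and 14 did not pass (median 0.08). The 6 calls became 2 without D2, D3 or U2 or with median centring, 3 without U1 or with adjustment over both array types, 1 without U3, without the trend or with a floor of 64, and 0 with no filter or the lot block. Srgn, a secretory granule proteoglycan, rose by 2.44 ± 0.54, Ctsh, a lysosomal protease, by 2.06 ± 0.29, and Dab2, an endocytic adaptor needed in visceral endoderm, by 1.25 ± 0.28 (SE, limma adjusted p from 0.00397 to 0.0415). Col4a1, a basement membrane collagen, rose to 10.49 ± 0.14 in differentiated RNAs, against 9.50 ± 0.25 in undifferentiated ones (SD, n = 3 each, limma adjusted p = 0.0141). Nid1, a basement membrane protein, and Lrp2, an endocytic receptor of visceral endoderm, fell, Lrp2 with a difference of -1.14 ± 0.21 (SE, adjusted p = 0.0169). Of 14 liver and yolk sac genes tested, 5 rose (Ttr, Spink1, Amot, Apoa1 and Rbp4), 0 fell and 9 did not pass (median 0.84). Afp, Apoa4, Fgb, Fgg and Serpina1b of this list were too dim to test. The 5 calls became 3 with no filter or the lot block. Like the other lists, this list was written with earlier results of these arrays known, so its count is not independent evidence of a direction. Among the 9, Apob (0.80) and Apoc3 (0.88), 2 apolipoprotein genes known as HNF4A targets, did not pass although their groups did not overlap, and Apoa2 (0.38) and Mttp (0.14) had overlapping groups. The mean of this list stood at 1.55, 1.58 and 1.34 in D1 to D3.

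**Figure D4:**
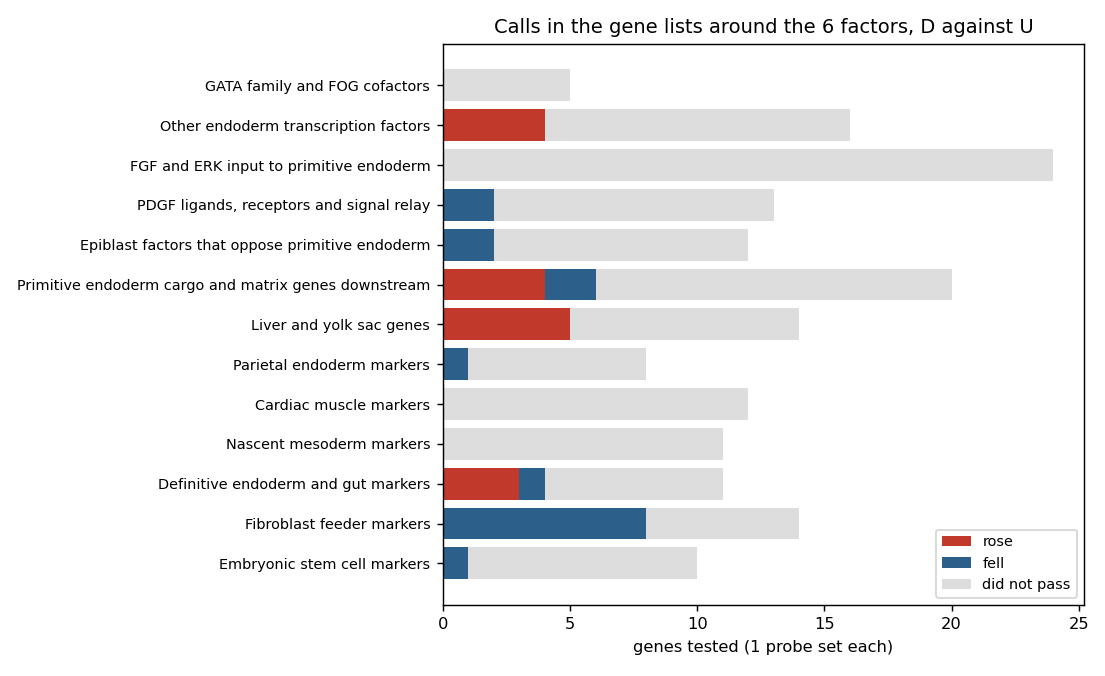
Number of tested genes (x axis) in each of 13 lists that rose, fell or did not pass in the differentiated against the undifferentiated RNAs. The lists of other endoderm transcription factors and of liver and yolk sac genes hold genes that rose and 0 that fell, and the list of fibroblast markers holds 8 that fell.

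The 6 genes are not private to primitive endoderm, so markers of other cell types that use them are given beside them. For heart, where Gata4 and Gata6 are active, 0 of 12 cardiac markers were called by limma and 1 had an unadjusted p under 0.05 (median 0.09), and their summed array A signal was 2056.9 to 3195.3 in differentiated RNAs and 2204.2 to 2452.4 in undifferentiated RNAs. For nascent mesoderm, which uses Pdgfra, 0 of 11 were called by limma, also 0 at an unadjusted p under 0.05 (median 0.47), with sums of 3148.1 to 3522.0 against 2718.5 to 2885.4. The marker T was listed too, but no probe set carried that symbol, so it was not examined. For definitive endoderm and gut, which use the FOXA factors, 3 of 11 rose (Cer1, Cxcr4 and Pyy), 1 fell (Trh) and the median was -0.01. The 4 calls became 0 without D3, 1 without D2 or U3 and 2 without D1, U1 or U2, and 1 with median centring, a floor of 64, no filter, no trend, adjustment over both array types or the lot block. Cer1 is also known from anterior visceral endoderm, while Cxcr4 is commonly used to tell definitive from visceral endoderm. The sums of this list were 14365.5 to 15075.4 against 17569.6 to 24132.6. Trh, its brightest gene by group mean, weighs most in these linear sums (log2 12.34 ± 0.29 against 13.41 ± 0.46, SD, n = 3 each). The mean log2 signal of its tested genes went the other way, above the undifferentiated mean by 0.45, 0.54 and 0.34 in D1 to D3. For parietal endoderm, 0 of 8 rose and Timp1 fell, while 4 differences lay above 0 and 4 below it (median -0.05). The sums were 3341.3 to 3800.5 against 4907.3 to 6263.9. Tfpi and Timp1, the brightest by undifferentiated mean, weigh most in the undifferentiated sums. Their log2 means were 9.75 and 8.64 in differentiated RNAs, against 10.74 and 10.61 in undifferentiated RNAs. For fibroblasts, which carry Pdgfra, 8 of 14 fell (median -1.20; 5 with a floor of 64 or no filter, 4 with the lot block and 2 without the trend), among them S100a4 and Bgn, with sums of 7852.4 to 9473.3 against 20538.5 to 21560.1. The fibroblast list was lowest in D3 (-1.76 against the undifferentiated mean, with -1.25 in D2 and -0.98 in D1), the RNA in which both tested Pdgfra probe sets were lowest. In D1, where the list also lay below the undifferentiated mean, both were the highest of all 6 RNAs (8.17 on array A and 9.57 on array B). No marker of these 5 lists lay at the floor in all 6 arrays. The part of these cells in the levels of the 6 genes was not tested.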

How the data were processed

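The 6 RNAs (3 differentiated, 3 undifferentiated) were measured on 2 array types, 12 arrays in all, and this number limits the precision. The deposited tables give 1 linear signal intensity for each probe set of an array, computed by the authors with MAS5, per the submitters' processing notes. Its version is not given in the sources used here. The 2% trimmed mean of every deposited array was 1500.1 to 1500.5, so arrays had been scaled to a common mean, which hides a change in total RNA. No detection calls were used.

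A single factor brought each array to a 2% trimmed mean of 500, and values below a floor of 32 were replaced by it before the log2 step. Control probe sets and those with a mean log2 signal under 6 were left out. Groups were compared with limma 3.58.1 (lmFit, eBayes with intensity trend) in R 4.3.3, per array type, two-sided, with Benjamini-Hochberg adjustment over 18025 (array A) or 20344 (array B) probe sets. The fit was also run on simulated data with independent noise and added shifts. Those data held no station, lot or RNA quality effect, so that run does not bear on these limits. A list gene was represented by 1 tested probe set, array A before B and then the brightest. Members, lists and tests were chosen with earlier results of these data known. Named genes are all member probe sets, up to 4 called genes of a list by size and up to 3 of its minority direction, the GATA, FOG and PDGF genes, and the 3 genes of highest Pearson r with a member; others were chosen after their values were seen. Promoter windows are from the RefSeq table, which held 4 of the 6 genes. Alternatives were the floor, normalisation, filter, variance model, adjustment, batch or replicate number as a block, and leaving out each RNA.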

Additional observations from a re-analysis of the deposited data

How the results depend on the processing

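Of the 12 tested member probe sets, 10 kept their direction under every alternative they could be tested in. The exceptions are both on array B: Gata6 1443081_at became 0.00 without D1, 0.23 without D2 and 0.35 without U3 (-0.63 to 0.35 on leaving out each RNA), and Pdgfra 1438946_at became 0.76 without D3 and 0.03 without U1 (-0.84 to 0.76). The count of called member probe sets on array A went from 2 to 0 with a floor of 64, with no filter, without the intensity trend and with the lot or station block, to 1 with adjustment over both array types, and was 1 to 2 on leaving out each RNA. Array B gave 0 under each alternative. For Gata6 1425464_at the difference of 1.51 was not called with a floor of 64, with no filter, without the trend or with adjustment over both array types (1.51 in each), nor with the lot block (1.60), and it ranged from 1.22 to 1.81 on leaving out each RNA. For Hnf4a 1427001_s_at the difference was not called with a floor of 64, with no filter or without the trend (2.40 in each), nor with the lot block (2.26). The lot block sets D1 to D3 against U1 alone. Called list genes were 33 (16 rose, 17 fell), against 18 with a floor of 64, 15 with no filter, 12 without the trend, 12 with the block and 19 to 31 on leaving out each RNA, with 21 without D3, 21 without U2 and 19 without U3. Calls among all array A probe sets were 518, against 194 with a floor of 64 or no filter, 97 without the trend, 307 with median centring, 319 with adjustment over both array types, 106 with the block, 313 without D3, 214 without U2 and 190 without U3. A floor of 64 or no filter took the number of array A probe sets tested from 18025 to 22626, and leaving out an RNA took it to 17805 to 18157. The cause of the losses was not tested. The labels do not say that replicate numbers mark shared batches, and same-numbered deviations correlated at 0.0123 to 0.157 on array A and 0.0966 to 0.183 on array B, not over 0.1 for every pair, so the RNAs were taken to share only a number. With the replicate block, array A had 724 calls, and Gata6 1425464_at (1.51) and Hnf4a 1427001_s_at (2.40) were called. On array B, but not on array A, each RNA correlated best with its own number, a hint of pairing from the data. Signal near the floor limits Hnf4a 1427000_at and Pdgfra 1421917_at, which were not tested.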
